A study of Mus musculus with 10 samples.

Results

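The 7 alpha and beta globin genes measured in embryonic mouse hearts are Hba-x, Hba-a1 and Hba-a2 of the alpha cluster and Hbb-y, Hbb-bh1, Hbb-bs and Hbb-bt of the beta cluster. They were taken by gene name from a table of 23195 genes, and all 7 were listed. Poly-A RNA of whole hearts at embryonic day 13.5 was sequenced from 5 wild-type males and 5 males with a constitutive null allele of Nos1ap, which encodes an adaptor protein of neuronal nitric oxide synthase. The label gives C57BL6/J as the strain of both groups. The null allele (tm1d), made in C57BL/6N embryonic stem cells and kept by backcrossing to C57BL/6J, lost the fourth exon to a CMV-driven Cre, so the loss is in every tissue and not in heart muscle alone. No heart was treated, and the same stage, sex and tissue were used in both groups. The table holds 1 mean of normalized counts per genotype and gene, so each globin value below is the authors' mean, without a spread between hearts, and no test was made on it.

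Haemoglobin is a tetramer of alpha-type and beta-type chains, each holding a haem group that binds oxygen. In the mouse embryo, primitive red cells made in the yolk sac use the embryonic chains zeta (Hba-x), epsilon-y (Hbb-y) and beta-H1 (Hbb-bh1) together with alpha chains, whereas definitive red cells made in the fetal liver use the adult-type alpha (Hba-a1, Hba-a2) and beta chains (Hbb-bs, Hbb-bt). Both kinds of red cell circulate at midgestation, and a whole heart carries the blood within its chambers and vessels. In bulk RNA a different number of red cells and a different amount of globin RNA per red cell cannot be told apart.

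Nos1ap itself was lower in the null: the wild-type libraries held 147, 133, 126, 161 and 153 normalized counts and the null libraries 42.3, 42.2, 44.4, 31.1 and 39.2, with no overlap (limma log2 difference −1.83, SE 0.12, adjusted p = 9.21e-09). Values by library were available where the whole read counts behind a group mean could be worked back from its digits. This succeeded for 98.7% of wild-type and 98.9% of null means below 1000. Means from 1000 on were not searched, which left out all 7 globin genes. The libraries are numbered 1 to 5 within each genotype by descending size factor, and they carried an estimated 11328200 to 14023000 read pairs on genes. One library stood apart in red-cell genes: Nos1ap null library 2 held the highest value of all 10 libraries for 22 of 28 genes of red-cell biology with recovered counts, against 13.3% of the 11255 genes with recovered counts that averaged 10 or more. The globin means were therefore not recomputed without this library, and its part in them was not tested.

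The coding sequences show which globins the sequenced reads, 100 bases from each end, can tell apart. Over the stretch of coding bases 352 to 410, Hba-a1 and Hba-a2 differ at 1 base and Hba-x differs from Hba-a1 at 26 of 59 bases. Sequences are of the coding strand of the annotated transcripts (GRCm38), and capitals mark the base at which the adult-type pair differs and, in Hba-x, every base that differs from Hba-a1.
Hba-a1: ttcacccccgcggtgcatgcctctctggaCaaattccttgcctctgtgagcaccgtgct
Hba-a2: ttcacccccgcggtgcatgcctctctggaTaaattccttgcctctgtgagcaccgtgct
Hba-x: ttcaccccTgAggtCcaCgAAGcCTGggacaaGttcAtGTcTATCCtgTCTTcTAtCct

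In the beta cluster the stretch of coding bases 388 to 441 shows the same arrangement, with capitals for the base at which the adult-type pair differs and, in Hbb-y and Hbb-bh1, for every base that differs from Hbb-bs.
Hbb-bs: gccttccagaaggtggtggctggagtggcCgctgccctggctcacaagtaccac
Hbb-bt: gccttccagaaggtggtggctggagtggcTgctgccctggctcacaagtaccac
Hbb-y: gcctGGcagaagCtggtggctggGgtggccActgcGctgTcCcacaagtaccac
Hbb-bh1: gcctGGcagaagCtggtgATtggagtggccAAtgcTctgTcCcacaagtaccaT

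Hba-a1 and Hba-a2 differed at 1 of 426 coding bases (C381T, with the base of Hba-a1 first and positions counted from the A of the start codon), and Hbb-bs and Hbb-bt at 1 of 441 (C417T, with the base of Hbb-bs first). Of all 100-base windows of the Hba-a1 transcript, 56.5% also occurred in Hba-a2, and 62.6% of those of Hbb-bs occurred in Hbb-bt. The division of reads within these pairs therefore rests on the counting model, so the pairs are also given as sums. The embryonic genes shared no 100-base window with an adult-type gene or with one another. Hbb-y and Hbb-bh1 were identical at 76.4% of 441 coding bases, and Hba-x and Hba-a1 at 65.7% of 420 aligned bases.

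All 7 genes have 3 exons (GENCODE annotation of GRCm38). On chromosome 11, on the plus strand, Hba-x lies at chr11:32276400-32278116, Hba-a1 at chr11:32283511-32284465 and Hba-a2 at chr11:32296489-32297298. On chromosome 7, on the minus strand, Hbb-bt lies at chr7:103812524-103813996, Hbb-bs at chr7:103826534-103828096, Hbb-bh1 at chr7:103841637-103843164 and Hbb-y at chr7:103851749-103853216. In both clusters the embryonic genes stand first and the adult-type genes last in the direction of transcription.

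The means of the embryonic globins were higher in the null hearts than in the wild type, by a larger factor than those of the adult-type globins. Hbb-bh1 had the largest log2 ratio of the 7 genes, 1.23, followed by Hba-x at 0.97 and Hbb-y at 0.73. The adult-type genes followed with Hba-a1 at 0.44, Hba-a2 at 0.38, Hbb-bt at 0.20 and Hbb-bs at −0.17. All 3 embryonic genes, and none of the 4 adult-type genes, were past a log2 ratio of 0.5, a size that 0.227% of the 2647 genes with a mean of at least 1000 reached in this direction and none of them in the other.

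Hbb-y, the epsilon-y chain and the most abundant globin transcript by mean, averaged 69480 normalized counts in the wild type and 115020 in the null, a ratio of 1.66. It ranked 7 among all genes by mean, and its difference of 45540 counts was the largest of any gene in the table. Hbb-bh1, the beta-H1 chain, averaged 1132 in the wild type and 2652 in the null, a ratio of 2.34. It was the least abundant of the 7, at rank 1180. The ratio of Hbb-y to Hbb-bh1 went from 61.4 in the wild type to 43.4 in the null. Counting error alone gave Hbb-bh1 a 95% interval of 1.18 to 1.27 on the log2 ratio, the widest of the 7, and this interval leaves out the spread between hearts. The paper named only Nos1ap, Mt2 and Gm7694 as differentially expressed at its cutoffs on false discovery rate and fold change. No globin was among them. The fold cutoff of the paper lay at a doubling, which only Hbb-bh1 of the 7 genes exceeded. The other globins could therefore not be named there, whatever their p-values.

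Hba-x, the zeta chain, averaged 14611 normalized counts in the wild type and 28698 in the null, a ratio of 1.96. It was the embryonic member of the alpha cluster, and its level was well below that of the alpha genes beside it. Per kilobase of the longest annotated transcript, Hbb-y exceeded Hba-x 6.02-fold in the wild type and 5.07-fold in the null.

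The adult-type alpha genes were both higher in the null. Hba-a1 averaged 46645 counts in the wild type and 63411 in the null, a ratio of 1.36, and Hba-a2 averaged 54737 and 71060, a ratio of 1.30. Summed, the pair that share most of their sequence went from 101383 to 134471, a log2 ratio of 0.41. The ratio of Hba-a1 to Hba-a2 was 0.85 in the wild type and 0.89 in the null.

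The adult-type beta genes went opposite ways. Hbb-bs averaged 22590 counts in the wild type and 20045 in the null, a ratio of 0.89, while Hbb-bt averaged 12997 and 14949, a ratio of 1.15. Their sum was nearly level, at 35587 in the wild type and 34994 in the null, a log2 ratio of −0.02. The ratio of Hbb-bs to Hbb-bt was 1.74 in the wild type and 1.34 in the null, and the division of reads between this near-identical pair was not tested.

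**Figure D1:**
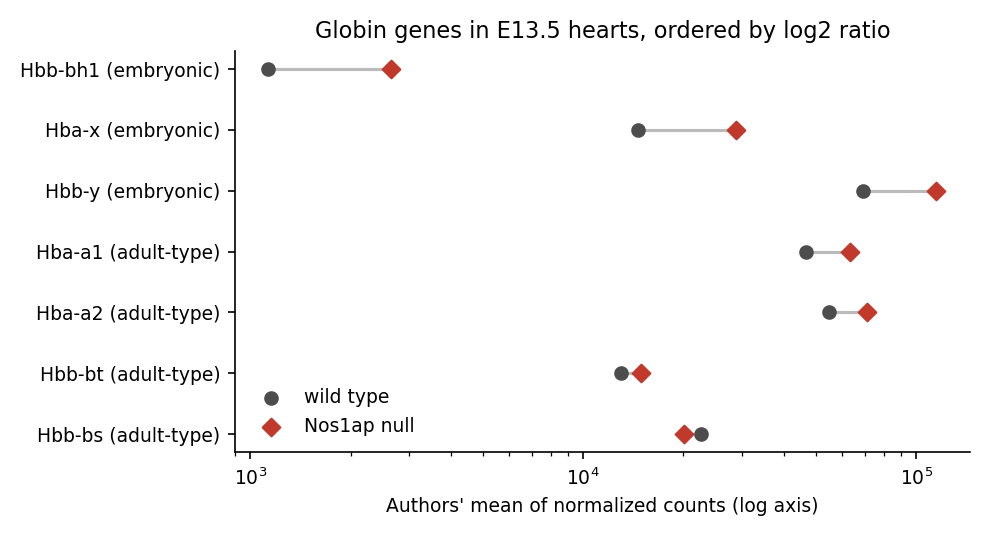
Authors' mean of normalized counts (log axis) of each globin gene in wild-type (circles) and Nos1ap null (diamonds) hearts, with genes ordered by log2 ratio from bottom to top. The 3 embryonic genes are at the top, from 1.23 for Hbb-bh1 to 0.73 for Hbb-y, and Hbb-bs is the gene whose null mean is the lower one; no error bar is drawn because the means carry no spread.

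Summed over the 7 genes, globin counts went from 222192 in the wild type to 315835 in the null, a ratio of 1.42 and a log2 ratio of 0.51. This was 1.82% of all normalized counts in the wild type and 2.56% in the null. The difference of 93643 counts compares with a net difference of 138222 over all 23195 genes, and the 4 largest differences of any gene were those of Hbb-y, Hba-a1, Hba-a2 and Hba-x. The next largest was Gm42418, a noncoding RNA, at −6913 counts, and then mt-Co1, a mitochondrial oxidase subunit, at 4167.

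Embryonic and adult-type chains were then compared as sums. The embryonic genes went from a summed mean of 85223 to 146370 counts, a log2 ratio of 0.78, against 136970 and 169465 for the adult-type genes, a log2 ratio of 0.31. The difference between these log2 ratios was 0.47. It was 0.76 within the beta cluster and 0.57 within the alpha cluster. The lowest embryonic gene, Hbb-y, lay 0.28 above the highest adult-type gene, Hba-a1, on the log2 scale. Embryonic transcripts made up 38.4% of globin counts in the wild type and 46.3% in the null. In the beta cluster their share was 66.5% and 77.1%, and in the alpha cluster, where Hba-x is the embryonic member, it was 12.6% and 17.6%.

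**Figure D2:**
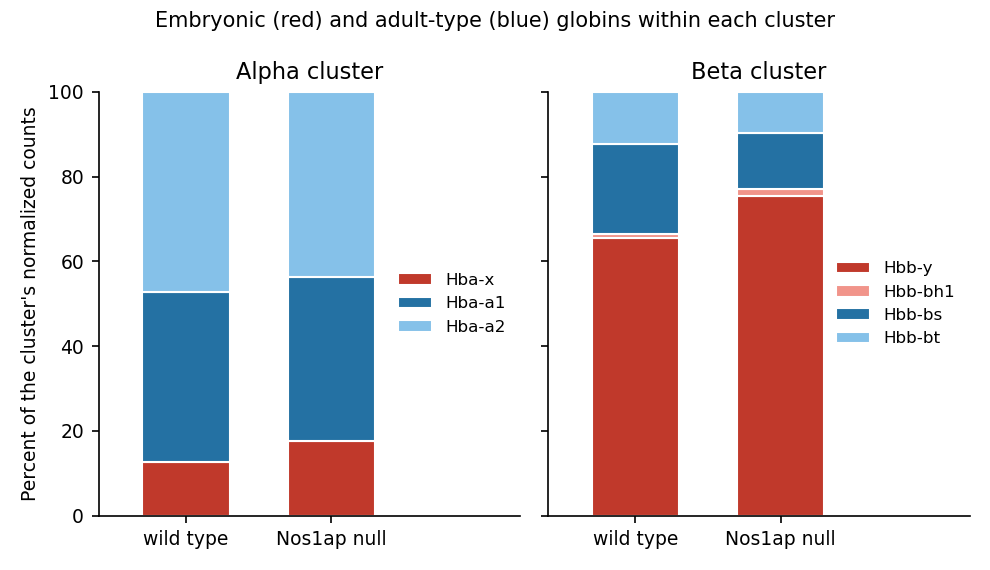
Percent of each cluster's normalized counts taken by each gene in wild-type and Nos1ap null hearts, from the authors' group means; red shades are embryonic and blue shades adult-type genes. The red share goes from 12.6% to 17.6% in the alpha cluster and from 66.5% to 77.1% in the beta cluster, most of it Hbb-y.

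The balance of alpha-type to beta-type transcripts hardly moved. Alpha-cluster counts summed to 115993 in the wild type and 163169 in the null, and beta-cluster counts to 106199 and 152665, log2 ratios of 0.49 and 0.52. The alpha to beta ratio was 1.09 in the wild type and 1.07 in the null, and 1.11 and 1.07 per kilobase of transcript. The alpha-type transcripts were mostly adult-type and the beta-type transcripts mostly embryonic in both genotypes.

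**Figure D3:**
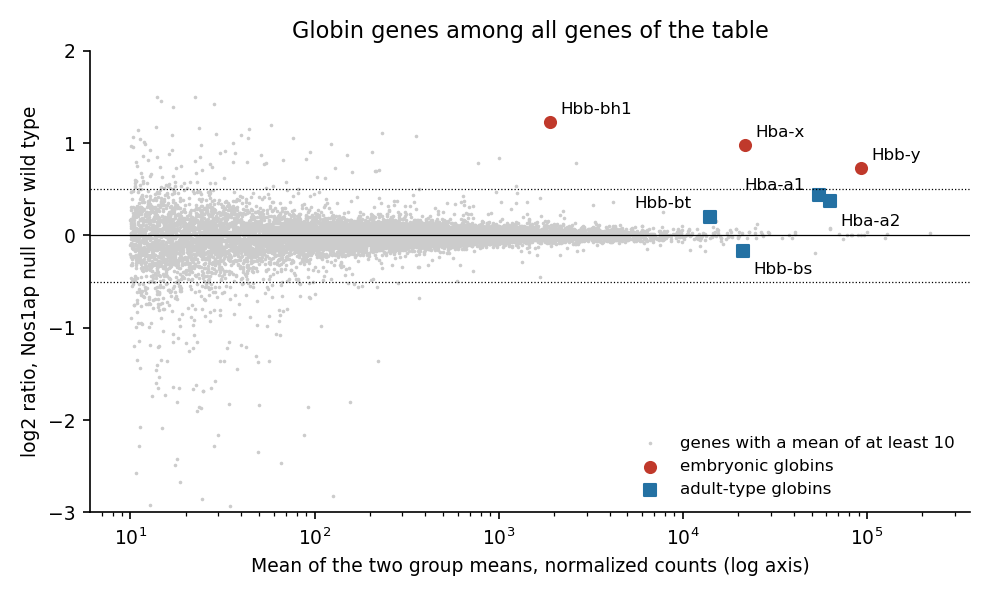
log2 ratio of Nos1ap null over wild type against the mean of both group means (log axis) for every gene averaging 10 or more; dotted lines mark 0.5 and −0.5, and 19 genes with lower ratios are off the plot. The embryonic globins (red circles, 0.73 to 1.23) and the adult-type alpha genes (blue squares, 0.38 and 0.44) stand above the narrow band of abundant genes, and Hbb-bs (−0.17) lies below it.

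Among genes averaging 1000 or more, 6 reached a log2 ratio of 0.5, and 3 of these were the embryonic globins. The others were Hsd3b6, a steroid dehydrogenase, at 0.83, Slc4a1, the band 3 anion exchanger of the red cell membrane, at 0.79, and Fam46c, at 0.54. Among the 10 highest abundant genes were also Hba-a1, Hba-a2, Slc25a37, the mitochondrial iron carrier mitoferrin, at 0.46, and Alas2, the first enzyme of haem synthesis in red cells, at 0.40. The genes whose log2 ratio lay nearest to that of the summed globins, 0.51, were Fam46c, Slc25a37, Alas2, Nudt4 at 0.36 and Slc20a1, a phosphate transporter, at 0.36. The median absolute log2 ratio over abundant genes was 0.029.

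The other globin loci gave small counts. Hbq1b, a theta globin of the alpha cluster, held 20.9, 12.6, 13.2, 32.0 and 6.21 normalized counts in the wild-type libraries and 19.8, 77.4, 6.05, 15.0 and 34.9 in the null. The groups overlapped, and null library 2 was the highest of all 10 (mean 17.0 ± 9.87 SD, n = 5, against 30.6 ± 28.2 SD, n = 5; two-sided exact permutation p = 0.37). Without null library 2 the null mean was 18.9 ± 12.0 (SD, n = 4), a log2 ratio of 0.16 in place of 0.85. Its neighbour Hbq1a averaged 6.22 and 8.54, and the beta-cluster loci Hbb-bh0 and Hbb-bh2 averaged 1.19 and 0.76 in the wild type and 2.23 and 1.00 in the null. In all 3 of these the highest value was again that of null library 2, at 19.1 counts for Hbq1a, 5.03 for Hbb-bh0 and 3.02 for Hbb-bh2. Of the globins that are not made in red cells, myoglobin (Mb), the oxygen store of heart muscle, averaged 2072 and 2202, a log2 ratio of 0.09, cytoglobin (Cygb) 34.5 and 34.1, a log2 ratio of −0.02, and neuroglobin (Ngb), with few counts, 4.01 and 2.85, a log2 ratio of −0.49.

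Genes that red cells use beside globin were examined in 5 lists: regulators of globin genes, haem and iron, handling of globin protein, red cell membrane and red cell maturation. Of 67 genes 62 had a mean of at least 10, of which 19 were past a log2 ratio of 0.5 higher in the null and 0 past it in the other direction, against 0.761% and 1.84% of the 14330 genes with such a mean. Their median log2 ratio was 0.30, beside −0.001 over all genes. By limma, with the spread between libraries, 0 of the 28 genes with recovered counts were called (smallest adjusted p = 0.998), 1 of them had an unadjusted p below 0.05, voom weights gave the same counts, and 0.0266% of 11264 genes tested were called. Above a mean of 200 counts were recovered less often where libraries were unequal, so these 28 genes are the more even or lower ones of the lists.

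By group means, which include null library 2, red cell membrane genes had the highest median of the 5 lists, 0.66, with 10 of 18 past 0.5. Over the 8 of them with recovered counts the median was 0.50 with 4 past 0.5, and without null library 2 it was −0.09 with 0 past 0.5. Over the 4 maturation genes with recovered counts the median was 1.09, and 0.17 without that library. By group means the 18 red cell membrane genes ran from −0.10 for Aqp1, a water channel also made in endothelium, to 1.39 for Cldn13, an erythroid claudin. Slc4a1 averaged 1933 counts in the wild type and 3337 in the null. Of the 8 maturation genes 3 were past 0.5, from 0.12 for Bnip3l, which clears mitochondria, to 1.50 for Hemgn, a nuclear protein of erythroid cells. Of the 15 haem and iron genes 1 was past it, from −0.04 for Slc25a38, a mitochondrial glycine carrier, to 0.51 for Hmox1, the enzyme that breaks haem down. Alas2 averaged 1452 and 1917. Of the 5 genes that handle globin protein, 1 was past it, from 0.10 for Prdx2 to 0.78 for Car2, a carbonic anhydrase.

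Regulators of globin genes had a median of 0.06. Klf1, Gata1, Nfe2 and Gfi1b, factors of erythroid and megakaryocytic cells, were the 4 of 16 past 0.5, with Gata1, the erythroid GATA factor, highest at 1.16. Without null library 2 only Gata1 of these 4 stayed past 0.5, at 0.63, and Klf1 was at −0.04, Nfe2 at 0.07 and Gfi1b at 0.02. Lin28b, an RNA-binding protein of the fetal programme, was lowest at −0.13. Factors known to repress embryonic or fetal globin genes were near level. Bcl11a held 414 to 482 normalized counts in every library (454 ± 6.61 and 440 ± 28.6, SD, n = 5 each; two-sided exact permutation p = 0.27). Sox6, a repressor of Hbb-y, averaged 242 ± 15.7 and 229 ± 13.6 (SD, n = 5 each; two-sided exact permutation p = 0.24). Zbtb7a averaged 820 ± 50.1 and 760 ± 60.3 (SD, n = 5 each; two-sided exact permutation p = 0.13). These 3 genes are also expressed outside red cells, so their level in the heart is not that of blood alone.

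**Figure D4:**
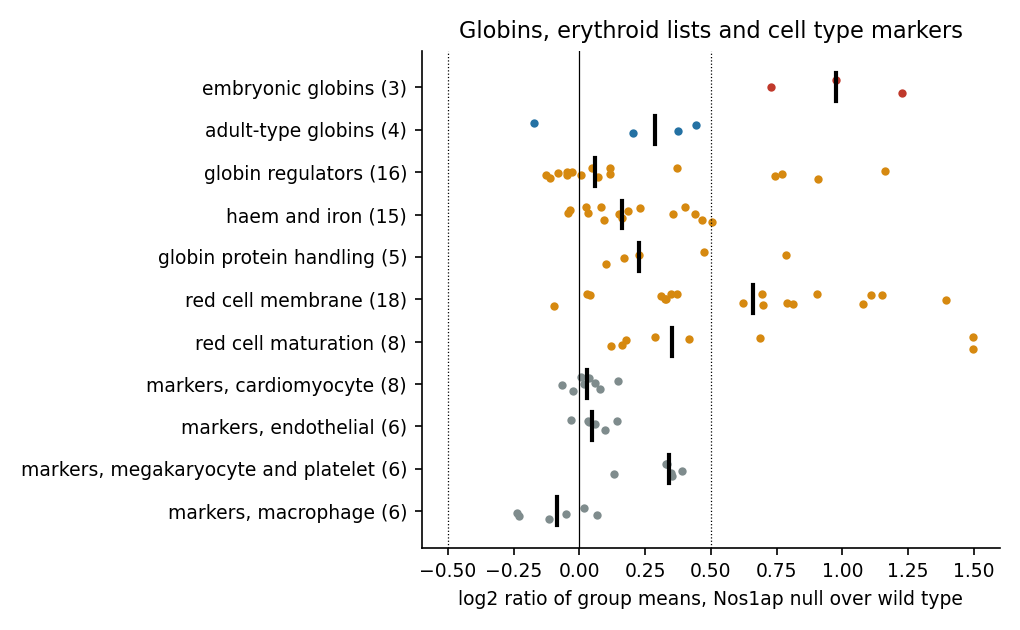
log2 ratio of group means (Nos1ap null over wild type) of the globins, of the erythroid lists (orange) and of markers of other cell types (grey), for genes with a mean of at least 10; a point is a gene, a bar the median and the number in brackets the genes shown, with dotted lines at 0.5 and −0.5. The embryonic globins have the highest median, 0.97, red cell membrane genes follow at 0.66, and cardiomyocyte and endothelial markers lie near 0.

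Values by library are given for red-cell genes with recovered counts. Klf1, an activator of adult-type beta globin, held 29.6, 12.6, 23.4, 23.7 and 10.3 normalized counts in the wild-type libraries and 14.4, 92.5, 11.1, 30.1 and 21.8 in the null. Gata1 held 16.5, 9.68, 15.3, 20.6 and 10.3 in the wild type and 14.4, 72.4, 18.1, 25.8 and 31.6 in the null (limma log2 difference 0.93, SE 0.36, adjusted p = 0.998). In both genes the groups overlapped and null library 2 was far above the other 9. Rhag, a glycoprotein of the Rh complex, held 33.1, 14.5, 32.6, 44.4 and 12.4 in the wild type and 27.0, 201, 8.07, 24.7 and 43.6 in the null. Trim10, an erythroid E3 ligase, held 149, 53.2, 133, 233 and 40.3 in the wild type and 81.0, 597, 46.4, 102 and 154 in the null. Wild-type libraries thus also ranged several-fold in red-cell transcripts, with library 4 the highest of the wild type for Rhag and Trim10 and library 5 the lowest for both.

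Null library 2 was the highest null library for 24 of the 28 genes, which 27.0% of all genes with recovered counts showed, and its value over the mean of the other 4 null libraries had a median of 1.92 and reached 8.13 for Trim58. With it, 11 of the 28 had a log2 ratio of group means of at least 0.5 and the median was 0.24. Without it, 1 of the 28 did, Gata1 at 0.63, against 0.578% of all genes with recovered counts, and the median was −0.06. In the means of the other 9 libraries the genes other than Gata1 ran from −0.35 for Trim10 to 0.45 for Hemgn and Cldn13. Whether the globin means behave in the same way was not tested, since their counts by library were not searched.

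**Figure D5:**
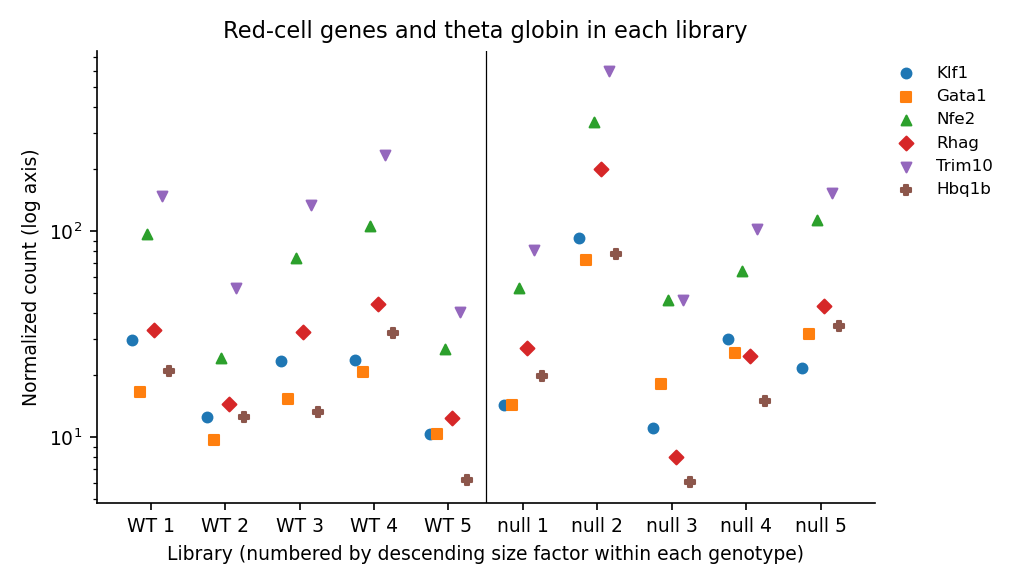
Normalized counts (log axis) of 5 red-cell genes and of the theta globin Hbq1b in each of the 5 wild-type (WT) and 5 Nos1ap null libraries, numbered by descending size factor. Null library 2 is the highest of all 10 for all 6 genes, at 597 for Trim10 and 77.4 for Hbq1b. The other null libraries mostly lie within or near the wild-type range. Exceptions are Gata1, at 25.8 and 31.6 in null libraries 4 and 5 against a wild-type highest of 20.6, and Rhag, at 8.07 in null library 3 against a wild-type lowest of 12.4.

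Markers of other cells of the heart and of blood were read in the same way. Cardiomyocyte markers ran from −0.07 for Nppa to 0.15 for Ryr2 and endothelial markers from −0.03 for Pecam1 to 0.14 for Kdr, so no marker of either list was past 0.5. Their summed counts were 395483 and 402681 for the 8 cardiomyocyte genes and 12271 and 12703 for the 6 endothelial genes, so the defining markers of heart tissue were abundant in both genotypes. The 6 megakaryocyte and platelet markers, which travel with blood, ran from 0.13 to 0.39, a median of 0.34, and null library 2 was the highest of the 10 libraries for Pf4 at 97.5 counts. The 6 macrophage markers ran from −0.24 to 0.07. Markers of fetal liver, where definitive red cells form, were scarce and did not move as 1 list. Afp averaged 21.1 counts in the wild type, where libraries 2 and 4 held 49.4 and 36.1, and 8.29 in the null, and Alb averaged 8.68 and 3.55. Apoa1 averaged 3.14 and 3.10, Apoa2 8.25 and 8.84, Ttr 7.25 and 5.61, and Fgb 0.19 and 0.20. In null library 2 Afp was at 3.02 counts, the lowest of the null, and Apoa2 at 10.1, the highest of the null.

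Promoter sequence was compared for the genes matched in RefSeq (6 of 7, not Hbb-bh1), because the embryonic and the adult-type genes stood apart in their ratios. The 30 bases from 97 to 68 before the RefSeq start are shown 5′ to 3′ on the gene's strand (GRCm38.p6) for an embryonic and an adult-type gene of each cluster, with capitals for CACCC and CCAAT, motifs read by KLF-type and by CCAAT-binding factors. They lie at chr11:32276503-32276532 (plus strand, Hba-x), chr11:32283575-32283604 (plus strand, Hba-a1), chr7:103853275-103853304 (minus strand, Hbb-y) and chr7:103827996-103828025 (minus strand, Hbb-bs). GENCODE starts Hba-x, Hba-a1, Hbb-bs and, by the least, Hbb-y further upstream than RefSeq.
Hba-x: tcCACCCtgcaagccccctcccctctccta
Hba-a1: acaaaccagCCAATgagaactgctccaagg
Hbb-y: acgggtcaggctgaCCAATagcttcaaaga
Hbb-bs: agagccaCACCCtggtaagggCCAATctgc

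In the 120 bases before the start, CACCC on either strand occurred in 6 of the 6 genes, against 31.7% of 32851 promoters, and CCAAT on either strand in 5 of 6, against 21.3%. Hba-x was the gene without CCAAT and the gene with GATAA on either strand, which 10.5% of promoters held. The TATA-like letters ATAAA or ATAAG on the gene's strand occurred in 6 of 6, against 18.4%. The windows of Hba-a1 and Hba-a2 were identical over 297 bases. The counts above take them as separate genes, although they are not independent sequences. CACCC and CCAAT were thus held by embryonic and adult-type genes alike, Hba-x excepted for CCAAT.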

How the data were processed

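Per the labels and the methods of the study, poly-A RNA was made into stranded libraries and sequenced in pairs of 100-base reads. The submitters' processing notes name FastQC 0.11.5, Trimmomatic 0.36, STAR, RSEM 1.2.31 and DESeq 1.24.0 with GRCm38. The deposited table holds the authors' mean of normalized counts (a signal, read counts divided by size factors) for each genotype. RSEM divides reads that match several genes by a model. The table also holds the authors' own fold changes and p-values, which were not used.

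Ratios were computed from both means. Whole counts of the libraries were recovered from the digits of means below 1000 as the single set of 5 counts, divided by size factors fitted to the table, that gives the mean. All sets were searched below 200 and otherwise those nearest to equal expression, accepted where at most 0.01 sets were expected by chance. The search was tested on simulated data with little spread between libraries beyond counting error. Genes with strongly unequal libraries were not simulated. limma 3.58.1 (trend, robust; R 4.3.3) was fitted to log2(normalized count + 1) over genes with recovered counts and a mean of at least 10, with Benjamini-Hochberg adjustment at 0.05. Fold changes on this scale understate those of low genes. Counting intervals cover 95% and counting error only. Single genes were tested by exact permutation over 10 libraries (252 arrangements, smallest two-sided p 0.0079). The libraries are separate samples in the labels, which do not say how the embryos fall into litters, so p-values measure the spread between these samples.

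The members and lists were chosen with earlier results of these data known. Genes were named by rule: all 7 members, other globin loci, the highest and lowest of each list, genes called by limma, list members with counts by library, the 5 abundant genes nearest the summed globins and the 10 highest abundant genes. Slc4a1 and Alas2 fall under the last, and the platelet, liver and heart markers, Gm42418 and mt-Co1 were named after their values were seen. Alternatives were other scalings, unsummed ratios, single clusters, counts per kilobase, other pseudocounts and filters, voom and leaving out each library.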

Additional observations from a re-analysis of the deposited data

Results flagged for a closer look

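In groups of 5 libraries, a highest or lowest value was taken as apart where its gap to the nearest other library exceeded 0.71 of the group's range. Of 58 groups (29 genes, each in both genotypes) 15 had such a value, and chance gives about 1 in 20 where values are normally distributed. Whether these counts are so distributed was not tested. The genes screened were chosen for red-cell biology, so other kinds of genes are not compared here. Of the 15 values apart, 13 were the highest value of Nos1ap null library 2. Among regulators these were Klf1 at 92.5 normalized counts, Nfe2 at 339.9, Gfi1b at 89.5 and E2f2 at 358. Among haem and iron genes they were Alad at 415.3 and Steap3 at 361. Among membrane genes they were Rhag at 201.1, Rhd at 258.4, Dmtn at 372, Cldn13 at 72.4 and Tspo2 at 102.6. Among maturation genes they were Trim10 at 597.3 and Trim58 at 69.4. The theta globin Hbq1b was not among them. The other 2 were wild-type libraries, library 5 for Myb at 27.9 and library 4 for Hemgn at 23.7. These genes share 10 libraries, so the groups are not independent.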

How the results depend on the processing

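The log2 ratio of the summed globins, 0.51, was 0.49 as a share of all counts, 0.50 relative to the counts outside the 7 genes and 0.54 as the mean of the genes' own ratios. Setting to 0 the median ratio over genes averaging 50 or more moved it by −0.0011. The embryonic minus adult-type difference, 0.47, was 0.76 as a difference of means of log2 ratios, 0.76 in the beta cluster alone and 0.57 in the alpha cluster alone. Per kilobase the embryonic share was 37.1% in the wild type and 44.9% in the null, and the alpha to beta ratio 1.11 and 1.07. No direction changed under these. limma called 0 of the tested red-cell genes under every alternative, and their median log2 difference, 0.20 in the main fit, ran from −0.034 without Nos1ap null library 2 to 0.31 without null library 1. In the alternative chosen after seeing the data, the count of genes past a log2 ratio of 0.5 went from 11 to 1 without null library 2. No paired analysis was possible because the group means carry no replicate numbers and the recovered libraries cannot be tied to those of the labels. The globin means give no spread between hearts, and no library was left out for them because their counts by library were not searched.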
